A study of Mus musculus with 8 samples.

Results

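Transcript levels were measured by RNA sequencing in wild-type mouse macrophages without treatment and after 2 h of lipopolysaccharide (LPS). The cells were bone marrow-derived macrophages of C57BL/6 background at passage 1, and serum was withheld for 24 h before LPS. These are the 2 untreated and the 2 LPS-treated libraries labelled wild type, 4 of the 8 in the series, and all genes of the table were considered. The label dose of LPS was 1 mg/ml. The other 4 libraries came from macrophages of the same background that carried the Lsd1SA/SA knock-in, in which LSD1, a histone demethylase, cannot be phosphorylated at the altered site according to the series text. They too were either untreated or labelled as given LPS, and they were used here to estimate the spread between libraries and in one comparison at the end. No label says whether the 2 libraries of a group came from separate animals or cultures, and the spread that the p-values rest on may thus be technical. In bulk RNA of this kind, a lower level can come from fewer cells that make a transcript or from less of it per cell, and these cannot be told apart.

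Macrophages recognise LPS, which Gram-negative bacteria carry on their surface, through the receptor TLR4 with its co-receptors CD14 and MD-2. The receptor signals through the adaptor MyD88 to NF-kB and the MAP kinases, and from endosomes through TRIF to IRF3 and type I interferon. The first hours bring transcription of cytokines together with the inhibitors that later end the response, while resting-state genes are switched down. The title of the series places LSD1 and protein kinase C alpha in this pathway, and the wild-type cells are the reference for that question.

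The 4 wild-type libraries held 40379258 to 51099759 reads assigned to genes. Levels are given as TMM-scaled CPM, counts scaled to library size after the authors' scaling between libraries, always in the order untreated library 1, untreated library 2, LPS library 1, LPS library 2. Differences are log2 changes on the log2(value + 1) scale with their standard error (SE), which understates the change of low genes. A gene was called higher or lower at a limma adjusted p (Benjamini-Hochberg) under 0.05 over the 11919 genes tested. Classes are hand-made gene lists, and where 5 or fewer members of a class moved in a direction they are named, some of them after their values were seen. The median coefficient of variation between the 2 libraries of a group was 4.67% untreated and 4.12% with LPS, against 13.5 to 14.2% between libraries of different groups. Kdm1a, the gene for LSD1, read 33.9 and 31.1 untreated and 47.3 and 45.8 with LPS (log2 change 0.51 ± 0.06 SE, limma adjusted p = 3.33e-07). Prkca, which encodes the kinase PKC alpha, was not called, at 2.77 and 3.03 untreated and 2.86 and 3.41 with LPS. Rela, which encodes the p65 subunit of NF-kB, was higher, at 107 and 106 untreated and 388 and 413 with LPS (log2 change 1.90 ± 0.05 SE, limma adjusted p = 9.05e-21). The libraries labelled knock-in with LPS stood apart from the other 6. Xist, the RNA of the inactive X chromosome, was at 0.366 and 0.212 in them against 315 to 437 elsewhere, a level that cells with a single X chromosome have. Leaving them out gave 3164 genes higher and 3594 lower in wild type, close to the counts that follow.

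The response was broad and uneven in size. LPS raised 3199 genes (26.8% of those tested) and lowered 3662 (30.7%). Most changes were small: 1919 of the genes higher and 2317 of the genes lower moved by less than 1.5-fold. At 2-fold or more, 771 genes were higher (6.47% of those tested) and 468 were lower (3.93%). These folds are on the log2(value + 1) scale, which shrinks a fall to a low level more than a rise to a high one. On that scale, beyond 4-fold, 233 genes were higher and 33 lower between 4- and 16-fold, and 76 were higher and 0 lower above 16-fold. The 771 strongly raised genes made up 4.12 and 4.14% of the summed level of tested genes in the untreated libraries and 17.2 and 17.6% in the LPS libraries. The 76 genes above 16-fold rose from 0.144 and 0.146% to 4.89 and 5.04%. The 468 genes lower by 2-fold or more went from 1.5 and 1.48% to 0.442 and 0.415%. The genes in these sums were picked by their change in the same libraries, so a gap between the groups follows from the choice. Among all tested genes, 76.1% had groups that did not overlap.

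The split between higher and lower calls depended on the scaling between libraries. In the deposited scaling 46.6% of calls were higher, against 35.4% after quantile normalization and 17.3% when each library was scaled by its total reads. Total scaling shifted the median log2 change of all tested genes from -0.03 to -0.30, so the small changes below are relative to that median. The changes of 2-fold or more kept a similar split of higher and lower in the deposited scaling and after quantile normalization (692 and 378 genes), whereas total scaling gave 568 and 885.

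**Figure D1:**
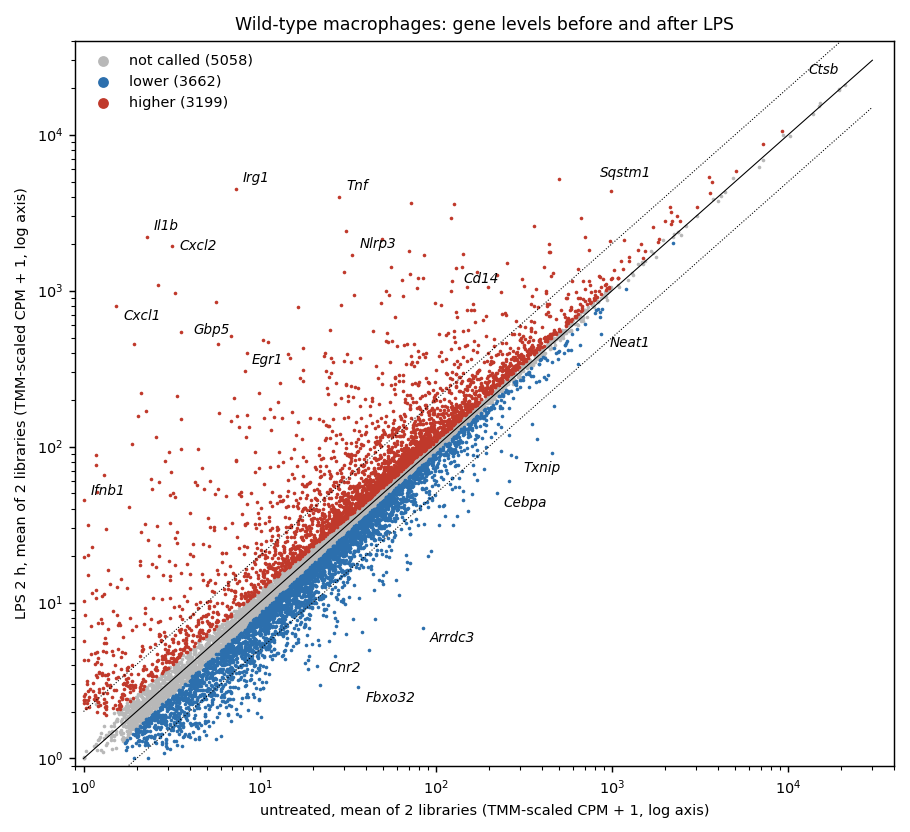
Mean level of each tested gene in untreated (horizontal axis) and LPS-treated (vertical axis) wild-type macrophages, in TMM-scaled CPM + 1 on log axes, with red for the 3199 genes called higher, blue for the 3662 called lower and grey for the 5058 not called. The solid line marks equal levels and the dotted lines a 2-fold difference, and the red points spread much farther from the line than the blue ones.

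Cytokines and chemokines made up the leading edge. All 31 tested members of a list of 32 early cytokines and chemokines were higher, 28 of them by 2-fold or more. Their median log2 change was 3.95, against -0.03 over all tested genes. Genes entered the test with a value of at least 1 in any 2 libraries. Some members were thus tested only because they were high with LPS, and for these a higher level was built in. Without LPS library 1, 22 members were tested (median 4.28), and without LPS library 2 also 22 (median 4.26). Il1b, the gene for interleukin-1 beta, read 1.28 and 1.27 untreated and 2086 and 2318 with LPS (log2 change 9.92 ± 0.11 SE, limma adjusted p = 7.58e-28). Cxcl2, a neutrophil-attracting chemokine, read 2.23 and 2.15 untreated and 1883 and 1954 with LPS (log2 change 9.23 ± 0.09 SE, limma adjusted p = 4.58e-29), and its neighbour Cxcl1 read 0.427 and 0.625 untreated and 786 and 807 with LPS (log2 change 9.03 ± 0.11). Cxcl10, a chemokine for activated T cells, read 1.73 and 1.55 untreated and 1037 and 1127 with LPS (log2 change 8.68 ± 0.09). These genes are among the largest increases, which were picked from genes whose groups do not overlap. Tnf, which encodes tumour necrosis factor, started from a higher base and read 26.8 and 27.4 untreated and 4039 and 3915 with LPS, a ratio of means of 147 (log2 change 7.14 ± 0.05 SE, limma adjusted p = 5.45e-32). Il1a rose by 7.22 ± 0.09 on the log2 scale from 4.18 and 5.16 to 824 and 862. Il12b and Il27, which encode subunits of cytokines that act on T cells, rose by 6.22 ± 0.14 and 6.21 ± 0.12. Ccl4 and Ccl3, chemokines for monocytes and lymphocytes, were already well read in untreated cells and rose by 5.66 ± 0.06 and 4.59 ± 0.07. Ccl4 reached 3443 and 3821 and Ccl3 2797 and 3058, among the 10 largest gains in level of all genes.

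Other genes of the leading edge belong to effector functions. Irg1, the enzyme that makes itaconate, read 6.50 and 6.11 untreated and 4375 and 4605 with LPS (log2 change 9.26 ± 0.06 SE, limma adjusted p = 5.45e-32), and it had the second largest log2 change and one of the 10 largest gains in level. Ptgs2, the inducible cyclooxygenase of prostaglandin synthesis, read 0.743 and 1.11 untreated and 434 and 473 with LPS (log2 change 7.89 ± 0.12 SE, limma adjusted p = 1.19e-25). Socs3, an inhibitor of cytokine receptor signalling, read 2.19 and 2.43 untreated and 969 and 955 with LPS (log2 change 8.19 ± 0.08 SE, limma adjusted p = 2.03e-28). Nlrp3, the sensor of an inflammasome, rose by 5.66 ± 0.06 from 30.9 and 34.2 to 1663 and 1722. Gbp5, an interferon-inducible guanylate-binding protein, rose by 6.28 ± 0.08, and Clec4e, which encodes the receptor Mincle for microbial glycolipids, by 6.24 ± 0.09. Marcksl1, an actin-regulating protein, reached 2316 and 2518 from 29.7 and 29.9. Together the 25 genes with the largest log2 increases went from 0.0250 and 0.0247% of the summed level to 2.45 and 2.53%.

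**Figure D2:**
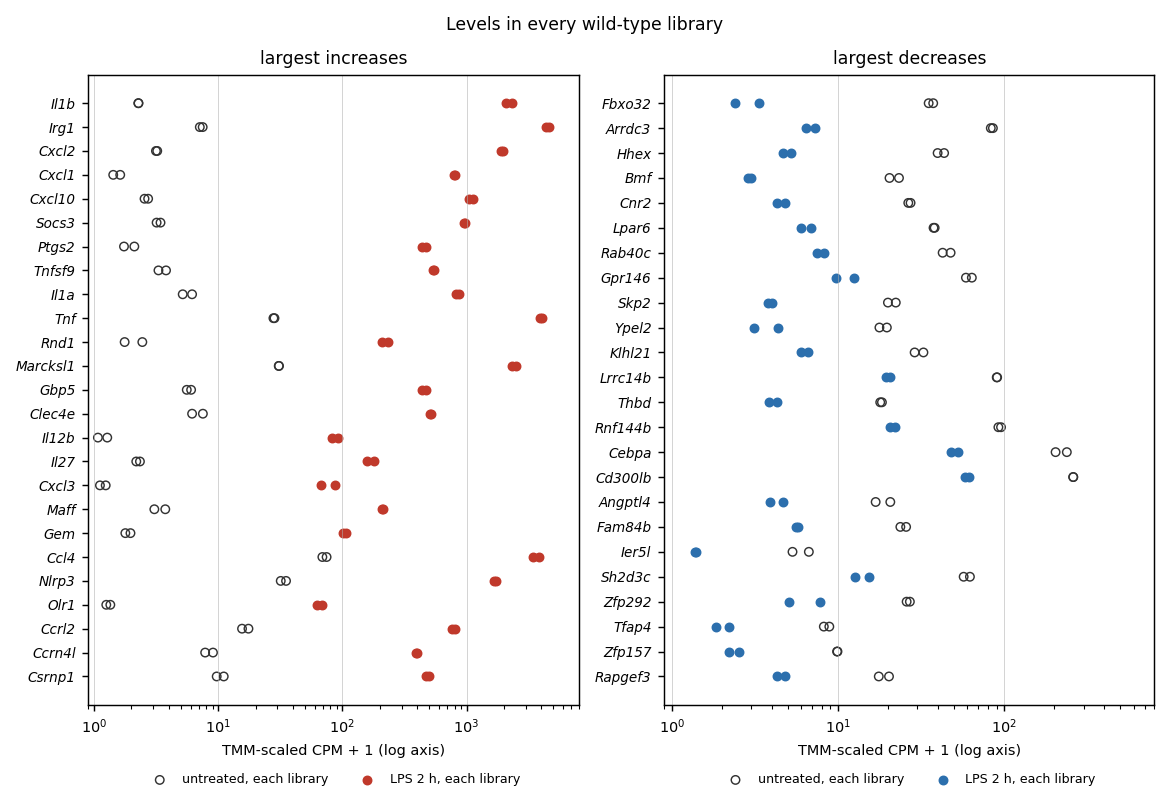
Level in every wild-type library, in TMM-scaled CPM + 1 on log axes, of the 25 genes with the largest log2 increases (left) and 24 of the 25 with the largest log2 decreases (right), with open circles for the 2 untreated and filled circles for the 2 LPS libraries. The rule for these genes required groups that do not overlap, and the spread within a group is small beside the gap, which reaches a log2 change of 9.92 on the left and -3.68 on the right.

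A further 8 genes went from 0 reads in both untreated libraries to a mean of 1 or more. Ifnb1, the gene for interferon beta, read 45.4 and 43.0 with LPS, at least 707-fold above a floor of 3 reads per library. Tmem200b, a membrane protein, read 18.2 and 19.1 (at least 298-fold), and Il23a, which encodes the p19 subunit of interleukin-23, read 9.95 and 8.57 (at least 148-fold). Sele, the gene for E-selectin, read 4.50 and 4.82 (at least 74.4-fold). Csf3, which encodes the granulocyte growth factor G-CSF, read 3.77 and 2.80 (at least 52.5-fold), and Il33, Areg and Shisa3 reached means of 1.39, 1.37 and 1.51. DESeq2 on the whole reads did not call Il33 (adjusted p = 0.122). In the other direction 0 genes with an untreated mean of 1 or more fell to 0 reads. Most low counts were even, which would follow from counting read pairs as 2, and these bounds would then be too high.

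Growth and tissue factors were more mixed. Of 32 listed, 26 were tested and 18 were higher, 4 were lower and 4 were not called (median log2 change 1.21). Without LPS library 1 or 2, 20 passed the filter and 12 were higher, with medians of 0.46 and 0.57. The myeloid growth factor genes Csf1 and Csf2 rose by 4.13 ± 0.09 and 2.65 ± 0.17, the latter to only 4.77 and 7.32. Edn1 (endothelin), Hbegf (an EGF receptor ligand) and F3 (tissue factor) rose by 4.33, 2.39 and 2.19. The 4 that fell changed little: Tgfb3 (-0.38), Hgf (-0.33), Vegfb (-0.29) and Pdgfc (-0.22). Tgfb3, Hgf and Pdgfc lost their calls without untreated library 1 (log2 changes -0.35, -0.24 and -0.17) and without LPS library 2 (-0.33, -0.21 and -0.10).

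The NF-kB pathway rose together with its own inhibitors. Of 35 listed subunits, kinases, adaptors and feedback genes, 32 were higher, 2 were lower and 1 was not called, with a median log2 change of 2.16. Among the inhibitors, Nfkbia (IkB alpha) read 58.3 and 51.0 untreated and 1402 and 1446 with LPS (log2 change 4.68 ± 0.06 SE, limma adjusted p = 2.99e-27), Nfkbie rose by 4.05 ± 0.07, and the nuclear family member Nfkbiz by 5.44 ± 0.06. Tnfaip3, which encodes the ubiquitin-editing enzyme A20, read 49.4 and 46.9 untreated and 2219 and 2033 with LPS (log2 change 5.44 ± 0.05 SE, limma adjusted p = 4.58e-29). Of the subunits, Rel rose by 3.52, Nfkb2 by 2.88, Relb by 2.64, Nfkb1 by 2.16 and Rela by 1.90. The kinases and the scaffold upstream moved less: Ikbkb by 0.59 and Ikbkg by -0.14, a call that was lost without the knock-in LPS libraries (limma adjusted p = 0.0579), without untreated library 1 (-0.08) and without either LPS library (-0.15 and -0.13). Map3k14, the kinase of the noncanonical pathway, fell from 33.0 and 30.8 to 19.1 and 17.8 (-0.76).

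The promoters of the leading genes were searched for NF-kB motifs. RefSeq windows of 300 bases, from 250 before to 50 after each annotated start (build GRCm38.p6), were found for 9540 of the tested genes. The search used GGG and CC with any 5 bases between them, on both strands. Among the 25 largest increases, 15 of the 20 matched genes held it in any of their windows, a count by gene. The shares that follow are of single windows, another measure. This wide motif is common: 70.0% of windows of genes higher by 4-fold or more held it, against 64.6% of windows of genes not called and 50.8% of all promoters in the reference. A narrower form chosen after these results were seen, GGGNNNTTCC, whose matches are a subset of the wide motif's, was in 13.6% of windows of genes higher by 4-fold or more, 5.34% of windows of genes not called and 5.56% of all. The 250 bases before the start of 3 chemokine genes are shown because these genes were among the 5 largest increases, with matches to the wide motif in capitals, 5′ to 3′ on the strand of the gene. A run of capitals can hold overlapping matches.
Cxcl2 (chr5:90903649-90903898, plus strand): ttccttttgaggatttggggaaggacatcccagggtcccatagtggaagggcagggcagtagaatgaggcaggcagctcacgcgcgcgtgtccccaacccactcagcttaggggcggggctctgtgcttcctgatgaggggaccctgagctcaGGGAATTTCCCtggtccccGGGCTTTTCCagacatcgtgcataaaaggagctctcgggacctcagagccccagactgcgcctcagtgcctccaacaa
Cxcl1 (chr5:90890995-90891244, plus strand): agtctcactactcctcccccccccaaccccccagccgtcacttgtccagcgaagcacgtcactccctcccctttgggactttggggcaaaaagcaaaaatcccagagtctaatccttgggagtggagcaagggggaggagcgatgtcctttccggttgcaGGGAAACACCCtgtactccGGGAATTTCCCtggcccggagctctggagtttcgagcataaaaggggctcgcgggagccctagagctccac
Cxcl10 (chr5:92348890-92349139, minus strand): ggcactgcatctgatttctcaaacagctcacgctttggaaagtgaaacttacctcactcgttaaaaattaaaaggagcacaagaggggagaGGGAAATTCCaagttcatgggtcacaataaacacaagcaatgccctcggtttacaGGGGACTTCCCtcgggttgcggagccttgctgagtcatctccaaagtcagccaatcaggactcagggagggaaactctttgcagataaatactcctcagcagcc
The interferon-stimulated motif, GAAA repeated after any 2 bases and read on both strands, was in 6.94% of windows of genes higher by 4-fold or more, 3.27% of genes not called and 3.44% of all promoters. For AP-1 (TGAGTCA or TGACTCA) these shares were 8.83%, 3.63% and 5.20%. A match is a description of the letters in the window, and binding was not measured here.

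Immediate-early transcription factors split by family member. Of 31 tested, 22 were higher and 4 were lower, with a median of 1.85. Egr1, an early growth response factor, read 7.30 and 7.13 untreated and 306 and 299.6 with LPS (log2 change 5.21 ± 0.09 SE, limma adjusted p = 1.58e-24), and Egr3 and Egr2 rose by 3.18 and 2.02. Maff, a small Maf protein, rose by 5.96 ± 0.11 and Csrnp1, a nuclear protein of the immediate-early class, by 5.54 ± 0.07. Of the AP-1 genes, Fosl1 rose by 3.12, Junb by 2.91 and Fosl2 by 2.30, whereas Fos was not called at 99.4 and 94.1 untreated and 108 and 98.2 with LPS and was lower after quantile normalization and with total scaling. Jun, Klf4 and Klf10 were slightly lower (-0.35, -0.33 and -0.31), Klf4 not without LPS library 2 (-0.25, not called). Irf1, an interferon regulatory factor, read 79.2 and 75.1 untreated and 1054 and 1015 with LPS (log2 change 3.73 ± 0.05). Ier5l fell from 5.68 and 4.33 to 0.377 and 0.407, one of the 25 largest decreases.

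Genes that restrain MAP kinases and act on mRNA decay changed in both directions. Of 24 tested MAP kinase phosphatases and related inhibitors, 15 were higher and 6 were lower (median 0.89). Dusp1, which dephosphorylates p38 and JNK, read 76.9 and 79.0 untreated and 1248 and 1152 with LPS (log2 change 3.93 ± 0.05 SE, limma adjusted p = 4.59e-26), and Dusp2 and Dusp5, nuclear phosphatases that act on ERK, rose by 4.85 ± 0.09 and 4.45 ± 0.13. Dusp6, the cytoplasmic ERK phosphatase, fell from 47.9 and 50.3 (log2 change -1.93 ± 0.07 SE, limma adjusted p = 5.11e-17). Of 32 tested genes of mRNA decay and stability, 18 were higher and 7 were lower (median 0.20), a balance that turned with total scaling (12 and 16, median -0.09). Zfp36, which encodes tristetraprolin, a protein that marks cytokine mRNAs for decay, read 140.0 and 143 untreated and 1781 and 1628 with LPS (log2 change 3.58 ± 0.05 SE, limma adjusted p = 1.50e-25). Zc3h12a, the gene for the endonuclease regnase-1, rose by 3.02 ± 0.06 and Zc3h12c by 3.74 ± 0.07. Zfp36l2, a relative of tristetraprolin, fell from 371 and 376 to 115 and 107 (log2 change -1.74 ± 0.05 SE, limma adjusted p = 2.03e-20).

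Most interferon-response genes were higher, by amounts that varied widely. Of 47 tested, 36 were higher, 22 of them by 2-fold or more, and 2 were lower. The median log2 change over all 47 was 0.56. After quantile normalization 28 were higher and 10 lower, and with total scaling 27 and 12. Rsad2, which encodes the antiviral enzyme viperin, read 71.0 and 67.1 untreated and 1712 and 1896 with LPS (log2 change 4.69 ± 0.05 SE, limma adjusted p = 7.70e-28). Ifit1, a binder of foreign RNA caps, rose by 4.47 ± 0.07, the ubiquitin-like Isg15 by 4.02 ± 0.07, Cmpk2 by 3.86 ± 0.06 and the RNA sensor Ifih1 by 2.76. By contrast Stat2 and Irf7, transcription factors of the interferon pathway, were lower, by -0.44 and -0.24.

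Signalling around the receptors shifted at both ends. Of 37 tested genes of cytokine signalling and its restraint, 27 were higher and 4 were lower (median 0.39). Cish and Socs1, feedback inhibitors like Socs3, rose by 4.44 ± 0.11 and 2.89 ± 0.12, and Jak2, Il17ra and Il10ra rose by 2.54, 2.17 and 1.53. The 4 that fell were Socs6 (-1.07), Il6st (-0.47), Il6ra (-0.35) and Csf2rb (-0.20), the last 3 of which encode receptor chains. Of 32 tested Toll-like receptor components, 17 were higher and 9 were lower, against 14 and 14 after quantile normalization and 13 and 13 with total scaling. Tlr2, the receptor for bacterial lipoproteins, read 47.4 and 48.3 untreated and 798 and 854 with LPS (log2 change 4.08 ± 0.06 SE, limma adjusted p = 1.74e-25), and Cd14, the LPS co-receptor, read 133 and 126 untreated and 1348 and 1421 with LPS (log2 change 3.41 ± 0.05). Tlr4, the LPS receptor itself, was lower, at 93.8 and 93.6 untreated and 57.1 and 53.3 with LPS (log2 change -0.75 ± 0.06 SE, limma adjusted p = 4.68e-11). Among the adaptors, Irak2, Ticam1 and Ticam2 rose by 2.36, 1.48 and 1.52. Tab1, a partner of the kinase TAK1, fell from 20.2 and 17.5 to 4.27 and 4.61 (-1.87).

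Surface molecules for contact with other cells rose. Of 38 tested genes of costimulation and adhesion, 30 were higher and 4 were lower (median 0.91). Cd40, a receptor for T cell help, read 10.7 and 9.65 untreated and 441 and 488 with LPS (log2 change 5.38 ± 0.08 SE, limma adjusted p = 5.67e-26), and Icam1, an adhesion molecule for leukocytes, read 85.2 and 83.5 untreated and 1625 and 1739.8 with LPS (log2 change 4.30 ± 0.05). Cd83 and Icosl rose by 4.18 and 3.46, and the TNF superfamily ligand genes Tnfsf9 and Tnfsf4 by 7.26 and 5.43. The integrin genes Itgb7 (-0.52) and Itga6 (-0.31), the glucan receptor gene Clec7a (-0.33) and the selectin ligand gene Selplg (-0.11) were lower, although the call of Selplg was lost without untreated library 2 (-0.07) or either LPS library (-0.09 and -0.13). In antigen presentation 15 of 31 tested genes were higher and 1, Ifi30 (-0.26), was lower, and 0 of these changes reached 2-fold. The balance turned after quantile normalization (10 higher and 12 lower) and with total scaling (9 and 17). Cd74, H2-Aa and H2-Ab1 of the class II pathway rose by 0.73, 0.65 and 0.65. Of 46 phagocytic and scavenger receptors, 19 were higher and 5 were lower, led by Trem1 (2.82) and the complement gene C3 (1.42), but 10 were higher and 25 lower after quantile normalization and 9 and 25 with total scaling. Those lower were Cd300lf (-0.82), Mertk (-0.38), Stab1 (-0.30), Cd300a (-0.29) and Fcgr1 (-0.11). The call of Cd300lf rested on untreated library 1, which read 53.5 against 16.8 to 20.1 in the other 3 libraries, and without it the log2 change was -0.14. The call of Fcgr1 was lost without untreated library 1 (-0.07) or either LPS library (-0.12 and -0.10).

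Among enzymes of inflammatory mediators, 16 of 29 tested were higher and 3 were lower, against 12 and 7 after quantile normalization and 11 and 12 with total scaling. Those lower were Srm (-0.26), Hpgds (-0.17) and Pla2g7 (-0.16). The calls of Srm and Pla2g7 were lost without LPS library 1 (-0.16 and -0.12), that of Srm also without untreated library 2 (-0.20) and that of Hpgds without LPS library 2 (-0.12). Ptges, the prostaglandin E synthase that acts after Ptgs2, read 1.43 and 1.48 untreated and 51.0 and 53.5 with LPS (log2 change 4.44 ± 0.11). Nos2, the inducible nitric oxide synthase, was only at 8.02 and 12.1 by 2 h (log2 change 3.11 ± 0.17), and Gch1, which makes its cofactor, rose by 2.15. Slc7a2, a transporter of arginine, rose by 3.52 ± 0.12.

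Genes that act on cell death rose more often than they fell. Of 43 tested genes of cell death and survival, 29 were higher and 7 were lower. Cflar, the caspase-8 inhibitor, read 118 and 126 untreated and 1146 and 1170.3 with LPS (log2 change 3.24 ± 0.05 SE, limma adjusted p = 1.84e-25), and Pim1, a survival kinase, rose by 4.12 ± 0.05. The Bcl2a1 genes rose by 2.81 to 3.64, although Bcl2a1a, Bcl2a1b and Bcl2a1d are near-identical copies and their reads may be split. Bmf, which encodes a pro-apoptotic BH3-only protein, fell from 22.3 and 19.4 to 2.01 and 1.88 (log2 change -2.89 ± 0.09 SE, limma adjusted p = 1.72e-18), while Bcl2l11, the gene for the related protein BIM, rose by 1.87.

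Cytoskeletal regulators rose broadly, with 36 of 46 tested members higher and 4 lower (median 0.61). Rnd1, an atypical small GTPase, read 1.45 and 0.764 untreated and 207 and 232 with LPS (log2 change 6.73 ± 0.13 SE, limma adjusted p = 1.49e-23), and Cdc42ep2 and Cdc42ep4, effectors of the small GTPase CDC42, rose by 4.80 and 3.23. Fscn1, the actin bundler fascin, went from 2.54 and 1.62 to 45.1 and 50.4. Sdc4, the cell surface proteoglycan syndecan-4, read 132 and 117 untreated and 3429.6 and 3755 with LPS and had one of the 10 largest gains in level. The GTPase genes Rhoh and Rnd2 fell by 1.69 and 0.38, Arhgap25 by 1.14 and Cdc42ep3 by 1.03.

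Stress and metabolic genes changed through a few members, and the balance of these classes depended on the scaling. Of 22 tested heat shock chaperones 14 were higher and 0 were lower, against 9 and 7 after quantile normalization and 9 and 8 with total scaling. Hspa1a and Hspa1b, near-identical inducible HSP70 genes, rose by 4.44 and 4.77. In the integrated stress and unfolded protein responses 15 of 32 were higher and 6 were lower, which turned to 10 and 11 after quantile normalization and 9 and 15 with total scaling. Ppp1r15a, a phosphatase subunit that restores translation, read 47.6 and 54.2 untreated and 1005 and 967 with LPS (log2 change 4.25 ± 0.06 SE, limma adjusted p = 2.63e-26), and Eif2ak3, the kinase PERK, fell by 1.08. Of 34 antioxidant and iron genes 15 were higher and 5 were lower, which turned to 10 and 17 and to 10 and 18 under the same alternatives. Sod2, the mitochondrial superoxide dismutase, read 51.9 and 51.2 untreated and 523 and 552 with LPS (log2 change 3.36 ± 0.05), and Slc7a11, the cystine transporter, rose by 3.30. Keap1, which targets NRF2 for degradation, fell by 0.75 and Nfe2l2, the gene for NRF2, rose by 1.17. The other 4 that fell were the iron exporter gene Slc40a1 (-0.43), Gclc (-0.30) and Gss (-0.24) of glutathione synthesis, and Hmox1 (-0.11). The call of Gss was lost without untreated library 1 (-0.19) or LPS library 1 (-0.12), and that of Hmox1 without untreated library 2 (-0.09) or either LPS library (-0.10 and -0.11). Sqstm1, the autophagy receptor p62, read 1028 and 947 untreated and 4196 and 4440.1 with LPS. In glycolysis and hypoxia 11 of 36 were higher (30.6%) and 9 were lower (25%), near the 26.8% and 30.7% of all tested genes. The counts were 10 and 17 after quantile normalization and 7 and 23 with total scaling. Those higher were led by the glucose transporter genes Slc2a6 (4.41) and Slc2a1 (1.84). In sterol and fatty acid metabolism 14 of 46 were higher (30.4%) and 12 were lower (26.1%), also near those shares. Under the same alternatives they were 12 and 18, and 10 and 25. Acsl1, an acyl-CoA synthetase, rose by 2.26.

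Ribosomal, proteasomal and respiratory chain genes moved little and their direction turned with the scaling. Of 81 cytosolic ribosomal protein genes 63 were higher and 0 were lower, with a median log2 change of 0.17. Of 28 proteasome subunit genes 23 were higher and 0 were lower (median 0.21), and of 76 respiratory chain genes 25 were higher and 1 was lower (median 0.08). With total scaling the counts were 0 higher and 44 lower for the ribosomal genes, 2 and 10 for the proteasome, and 0 and 54 for the respiratory chain. After quantile normalization they were 2 and 70, 3 and 7, and 4 and 22. Without the second LPS library, 33 ribosomal genes were higher, 14 of the proteasome and 10 of the respiratory chain, and without the second untreated library 12 of the last were higher. No direction is therefore given for these classes.

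**Figure D3:**
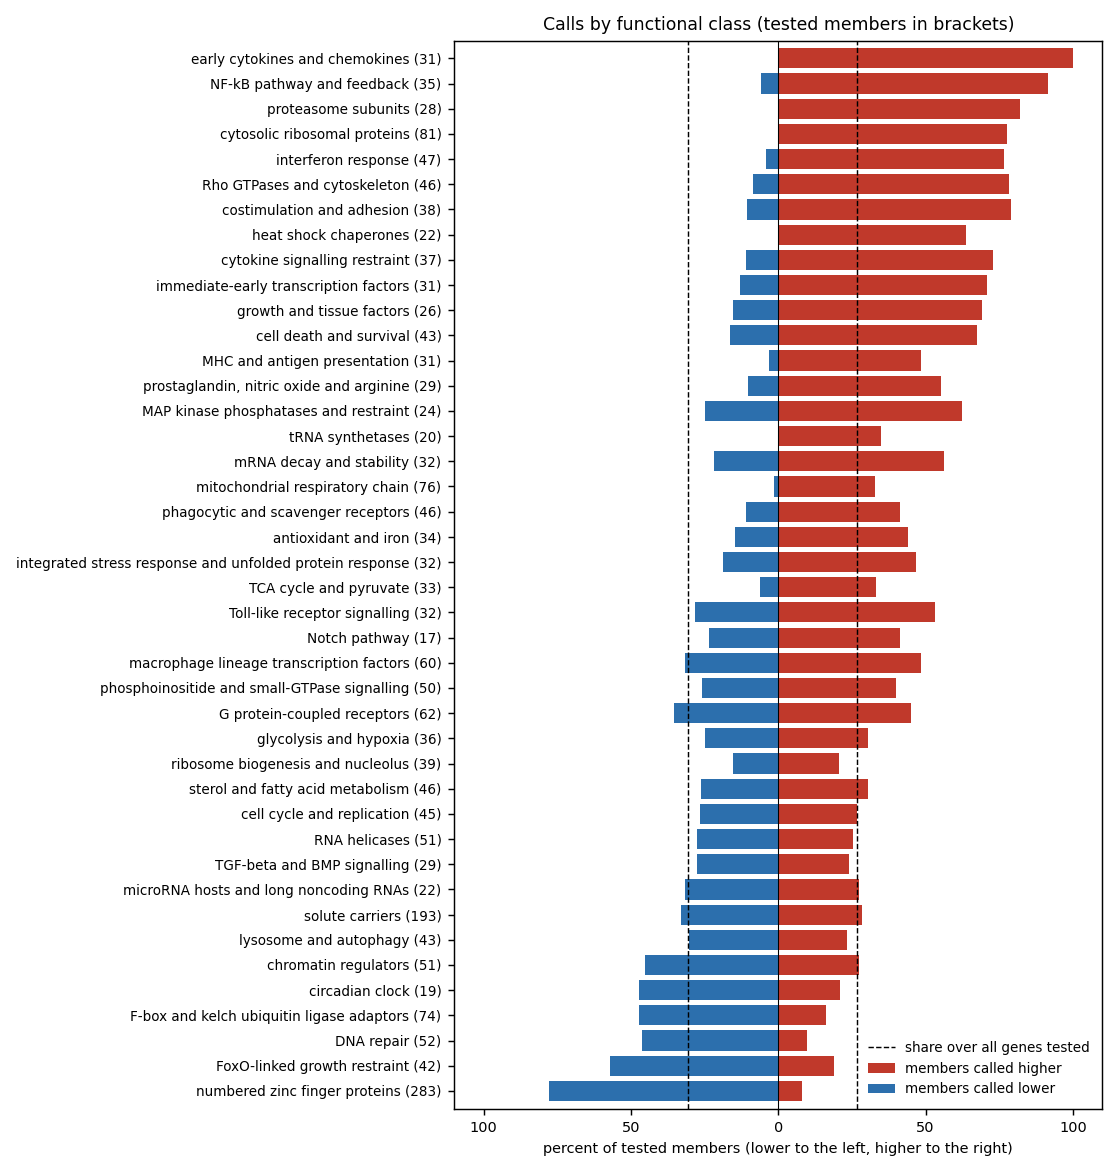
Percent of the tested members of each functional class that were called higher (red, to the right) or lower (blue, to the left) with LPS in wild-type macrophages, with the number tested in brackets and dashed lines at the shares over all tested genes (26.8% higher and 30.7% lower). Cytokines stand at the top with 100% higher and numbered zinc finger genes at the bottom with 77.7% lower. Some of the cytokines were tested only because they were high with LPS.

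The largest decreases were in genes of several functions. Fbxo32, an F-box protein of ubiquitin ligases known from muscle wasting, read 36.4 and 34.1 untreated and 2.34 and 1.40 with LPS (log2 change -3.68 ± 0.10 SE, limma adjusted p = 9.09e-20), and the ratio of its means, LPS over untreated, was 0.0530. Arrdc3, an alpha-arrestin that acts in receptor trafficking, read 84.5 and 82.0 untreated and 6.31 and 5.45 with LPS (log2 change -3.62 ± 0.07 SE, limma adjusted p = 4.03e-23). Hhex, a homeobox factor of blood progenitors, read 38.7 and 42.5 untreated and 4.25 and 3.69 with LPS (log2 change -3.07 ± 0.08 SE, limma adjusted p = 1.09e-20). These and the other 22 of the largest decreases were picked among genes whose groups do not overlap, so the gap between groups is part of the rule. Skp2, the F-box protein that directs the cell cycle inhibitor p27 to degradation, fell by 2.44 ± 0.09. Klhl21, Rnf144b and Rab40c, also linked to ubiquitin ligases, fell by 2.28, 2.14 and 2.53. Thbd, the anticoagulant receptor thrombomodulin, fell from 16.9 and 17.4 to 3.29 and 2.85, and Angptl4, an inhibitor of lipoprotein lipase, from 19.6 and 15.9 to 3.69 and 2.92. Cd300lb, an activating receptor of myeloid cells, read 259 and 259 untreated and 60.8 and 56.7 with LPS (log2 change -2.12 ± 0.05). Lrrc14b read 89.1 and 89.6 untreated and 19.5 and 18.5 with LPS, but it shares exonic sequence with Ccdc127 on the opposite strand, which fell as well, from 69.6 and 71.0 to 16.9 and 16.8, and their reads cannot be told apart.

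Several of the decreases belong to genes known as targets of FoxO factors or brakes on growth. Of 42 tested members of that list 24 were lower and 8 were higher (median -0.21), against 30.7% lower and 26.8% higher over all tested genes. Besides Fbxo32, Arrdc3 and Bmf, these were Sesn1, a stress-induced inhibitor of mTORC1, which read 127 and 136 untreated and 37.3 and 32.0 with LPS (log2 change -1.89 ± 0.07 SE, limma adjusted p = 8.67e-18), and Txnip, the inhibitor of thioredoxin and glucose uptake, which read 284 and 283 untreated and 84.0 and 84.8 with LPS (log2 change -1.73 ± 0.04 SE, limma adjusted p = 1.19e-20). Tsc22d3, the glucocorticoid-induced leucine zipper, fell by 1.99 ± 0.06 and Ypel2 by 2.35 ± 0.12. The factor gene Foxo3 fell from 30.7 and 31.5 to 10.2 and 9.54 (-1.56), and Foxo1 by 0.47. The list was not uniform: Cdkn1a, the cell cycle inhibitor p21, rose by 2.56 ± 0.05 and Arrdc4 by 1.92 ± 0.09. The FoxO motif GTAAACA was in 2.55% of windows of genes lower by 2-fold or more, 2.75% of genes not called and 3.65% of all promoters. Of the 19 matched genes among the 25 largest decreases, 1 held it in any of its windows, Gpr146. Its 250 bases before the start (GRCm38.p6, RefSeq) are shown with the match in capitals.
Gpr146 (chr5:139389654-139389903, plus strand): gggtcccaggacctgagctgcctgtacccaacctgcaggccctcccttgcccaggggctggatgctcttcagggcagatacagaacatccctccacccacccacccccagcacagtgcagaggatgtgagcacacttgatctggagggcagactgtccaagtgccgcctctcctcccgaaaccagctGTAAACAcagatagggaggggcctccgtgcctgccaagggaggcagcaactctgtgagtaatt

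Transcription factors of the macrophage and other blood lineages changed in both directions. Of 60 tested lineage factors 29 were higher (48.3%, against 26.8% of all tested genes) and 19 were lower (31.7%, against 30.7%), and with total scaling 24 were higher and 28 lower. Cebpa, a factor of myeloid commitment, read 237 and 203 untreated and 52.0 and 47.1 with LPS (log2 change -2.12 ± 0.07 SE, limma adjusted p = 2.07e-18). Tfap4, a helix-loop-helix factor, fell by 2.07 ± 0.12. On the other side Id3, an inhibitor of helix-loop-helix factors, rose by 4.50 ± 0.13, Ets2 by 3.55 ± 0.06 and Tfec, a relative of MITF, by 2.53 ± 0.07.

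Receptors coupled to G proteins changed in both directions. Of 62 tested, 28 were higher (45.2%, against 26.8% of all tested genes) and 22 were lower (35.5%, against 30.7%). Their median was 0.02, against -0.03 over all tested genes. The counts were 24 and 25 after quantile normalization and 22 and 33 with total scaling. Ccrl2, an atypical chemoattractant receptor, read 16.5 and 14.6 untreated and 767 and 804 with LPS (log2 change 5.57 ± 0.06 SE, limma adjusted p = 1.49e-27). Gpr84, a receptor for medium-chain fatty acids, read 1.76 and 1.41 untreated and 105 and 122 with LPS (log2 change 5.47 ± 0.11), Adora2a, an adenosine receptor, 2.15 and 1.94 untreated and 86.4 and 97.1 with LPS (log2 change 4.93 ± 0.11), and Niacr1, the nicotinic acid receptor, rose by 4.69 ± 0.13. Cnr2, the cannabinoid receptor of immune cells, read 26.3 and 25.5 untreated and 3.77 and 3.32 with LPS (log2 change -2.57 ± 0.08 SE, limma adjusted p = 1.75e-18). Lpar6, a lysophosphatidic acid receptor, read 37.1 and 36.6 untreated and 5.00 and 5.88 with LPS (log2 change -2.56 ± 0.08 SE, limma adjusted p = 1.62e-18) and the orphan receptor gene Gpr146 read 62.8 and 57.8 untreated and 11.5 and 8.73 with LPS (log2 change -2.48 ± 0.08 SE, limma adjusted p = 2.92e-18). Rapgef3, which encodes the cyclic AMP sensor EPAC1 downstream of such receptors, fell from 19.3 and 16.6 to 3.77 and 3.28.

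The most uniform repressed class was that of numbered zinc finger genes, those named Zfp with a number. Most encode C2H2 zinc finger proteins, many of which carry a KRAB domain and silence genes or mobile elements. Of 283 tested, 220 were lower (77.7%, against 29.6% of the other 11636 genes), 23 were higher and 40 were not called. Their median log2 change was -0.75, against -0.02 for the other genes. They were 2.37% of tested genes and 19.7% of the 468 genes lower by 2-fold or more. The changes were of moderate size. Zfp292 read 26.1 and 24.9 untreated and 6.76 and 4.07 with LPS (log2 change -2.08 ± 0.12 SE, limma adjusted p = 3.30e-13) and Zfp157 read 8.87 and 8.93 untreated and 1.53 and 1.20 with LPS (log2 change -2.07 ± 0.11 SE, limma adjusted p = 3.69e-14), both among the 25 largest decreases. Zfp324 fell from 6.70 and 6.73 to 0.754 and 0.972, Zfp316 from 8.73 and 9.05 to 1.73 and 1.09 and Zfp60 from 8.54 and 7.80 to 1.41 and 1.81. Of the few that rose, Zfp263 read 62.7 and 59.1 untreated and 269.9 and 253 with LPS (log2 change 2.08 ± 0.05 SE, limma adjusted p = 1.34e-20), and Zfp36 is named like the class but encodes the RNA-binding protein described above.

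These genes are read at low levels, with a median of 8.52 in untreated cells, so their fall was set beside that of other genes of like level. Among genes with a mean over the 4 libraries under 3, 88.2% of 76 zinc finger genes and 30.1% of the other genes were lower. Between 3 and 6 the shares were 93.1% of 58 and 40.5%, between 6 and 12 they were 71.4% of 56 and 43.7%, and between 12 and 25 they were 79.2% of 53 and 37.3%. At 25 or more they were 42.5% of 40 and 21.4%, and 13 of these 40 zinc finger genes were higher. The count of zinc finger genes lower ranged from 210 after quantile normalization to 251 with total scaling over the scaling settings tried. The promoter windows of those called lower had a median of 4.67 CG pairs per 100 bases, against 6.67 for genes not called, and 41.0% held the SP1 motif GGGCGG on either strand, against 60.6% of genes not called and 35.7% of all promoters.

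**Figure D4:**
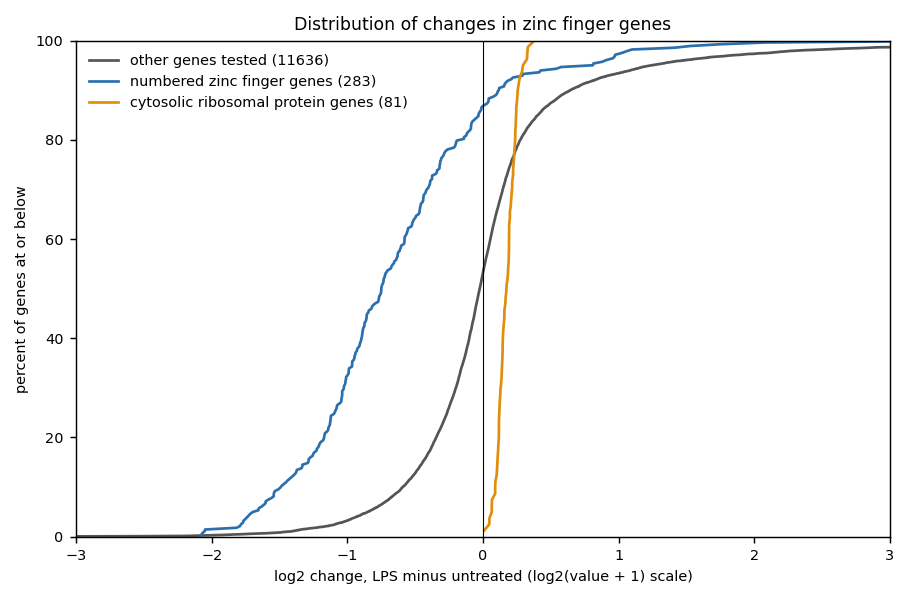
Cumulative percent of genes at or below each log2 change (LPS minus untreated, log2(value + 1) scale) for the 283 numbered zinc finger genes (blue), the 81 cytosolic ribosomal protein genes (orange) and the other 11636 tested genes (grey). The blue curve is displaced to the left over most of its length, with a median of -0.75, and the orange curve is steep around its median of 0.17, a position that moves with the scaling.

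In the deposited scaling some other classes held a larger share of genes lower than the 30.7% of all tested genes, of which 26.8% were higher. Of 52 tested DNA repair genes 24 were lower (46.2%) and 5 were higher (9.6%), with a median of -0.22. After quantile normalization 20 were lower and 10 were higher, and the median was -0.09, against -0.09 over all tested genes. In that setting 4640 of the 11919 tested genes were lower and 2539 higher, so this class did not stand apart there. With total scaling 37 were lower and 3 higher. Xpc, a sensor of nucleotide excision repair, read 27.9 and 28.4 untreated and 11.8 and 11.4 with LPS (log2 change -1.21 ± 0.07 SE, limma adjusted p = 2.61e-13), and the mismatch repair genes Pms2 and Msh6 fell by 1.14 and 1.05. Lig4, the ligase of end joining, fell by 1.04. Mdm2, the ubiquitin ligase for p53, was counted in the same list and rose, at 151 and 162 untreated and 775 and 728 with LPS (log2 change 2.26 ± 0.05 SE, limma adjusted p = 5.59e-22), and Fancc, Trp53 and Mdm4 rose by 0.56, 0.43 and 0.43. Of 51 chromatin regulators 23 were lower (45.1%) and 14 were higher (27.5%, near the share of all tested genes). Their median was -0.07, against -0.03 over all tested genes. Kdm6b, a demethylase of histone H3 lysine 27, read 30.0 and 29.9 untreated and 253 and 244 with LPS (log2 change 3.01 ± 0.06 SE, limma adjusted p = 1.45e-22), while Tet3, Ep300 and Kdm5b fell by 0.99, 0.97 and 0.83. Of 74 F-box and kelch adaptors of ubiquitin ligases 35 were lower (47.3%) and 12 were higher (16.2%), with a median of -0.21. Klhl25, which rose by 2.69 ± 0.08, was the largest of the latter.

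Of 19 tested circadian clock genes 9 were lower (47.4%, against 30.7% of all tested genes) and 4 were higher (21.1%, against 26.8%). Their median was -0.31. Dbp, a clock output factor, read 51.3 and 50.7 untreated and 19.8 and 21.0 with LPS (log2 change -1.28 ± 0.06 SE, limma adjusted p = 4.98e-15), and Per1, Bhlhe41 and Tef fell by 1.02, 1.02 and 0.89. Nfil3, a repressor that opposes Dbp on shared sites, rose by 2.88 ± 0.09 from 8.61 and 8.08 to 64.5 and 71.6, and Csnk1d and Clock rose by 0.43 and 0.34. In the cell cycle list 12 of 45 were higher (26.7%) and 12 lower (26.7%), near the 26.8% and 30.7% of all tested genes. With total scaling these were 5 and 28. Mki67, the proliferation marker Ki-67, rose from 53.7 and 61.8 to 294 and 263 (log2 change 2.25 ± 0.07 SE, limma adjusted p = 3.68e-19). In the Notch pathway 7 of 17 genes were higher (41.2%) and 4 were lower (23.5%). This turned to 5 and 9 after quantile normalization and to 4 and 10 with total scaling. Jag1, a ligand, read 7.56 and 7.29 untreated and 158 and 159.7 with LPS (log2 change 4.25 ± 0.08). Hey1, Lfng, Mfng and Maml2 of that pathway fell by 0.81, 0.77, 0.55 and 0.45. Among TGF-beta genes the inhibitor Skil rose by 3.19 ± 0.06 and its relative Ski fell by 0.63. Of the noncoding RNAs, Neat1, the scaffold of paraspeckles, read 887 and 833 untreated and 556 and 495 with LPS (log2 change -0.71 ± 0.06 SE, limma adjusted p = 2.96e-10) and was among the 10 largest losses in level. Mature microRNAs are not counted by such libraries.

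Within several gene families one member rose while another fell. The families below were picked after their values were seen, all tested members with the family name were counted, and the contrast within a family was not tested. Of all tested genes 26.8% were higher and 30.7% lower, and how often other families hold both was not counted. The split is thus not shown to be particular to these families. In the TTP family Zfp36 and Zfp36l1 rose and Zfp36l2 fell, and in the regnase family Zc3h12a and Zc3h12c rose and Zc3h12d fell (log2 change -1.43 ± 0.06). Of 20 dual-specificity phosphatases 9 were higher and 5 lower. Of the C/EBP factors, Cebpb read 102 and 103 untreated and 390.2 and 367 with LPS and Cebpd rose by 1.84 ± 0.08, opposite to Cebpa. Of 9 Toll-like receptors 3 were higher, namely Tlr2, Tlr1 and Tlr6 with log2 changes of 4.08, 1.30 and 1.02, and 5 were lower, led by Tlr4. Of 7 SOCS family genes 6 rose and Socs6 fell by 1.07. Adora2a and Adora2b rose by 4.93 and 3.24 and Adora3 fell by 0.73. Of 12 Krueppel-like factors 5 were higher, led by Klf7 (2.50), and 6 were lower, led by Klf11 (-1.41). Among 6 TRAF genes 5 were higher and 0 were lower.

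**Figure D5:**
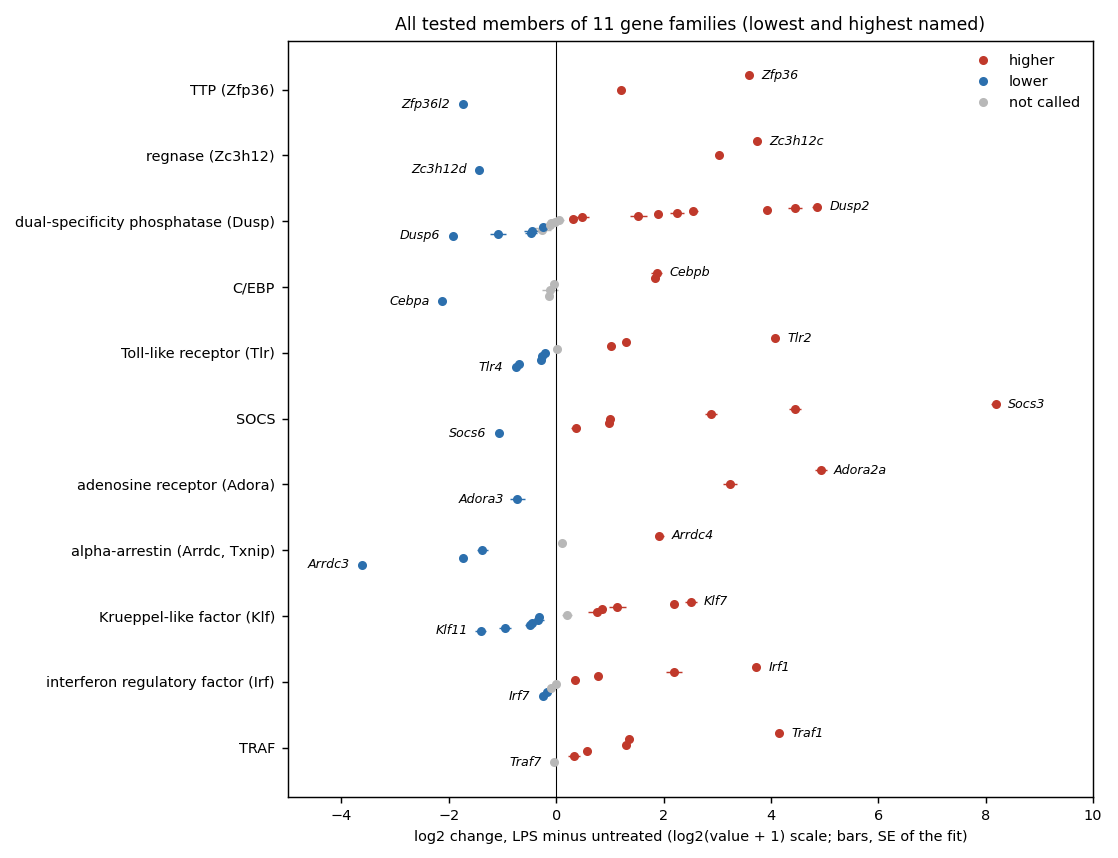
Log2 change (LPS minus untreated, log2(value + 1) scale) of every tested member of 11 gene families, with bars for the SE of the fit, red for higher, blue for lower and grey for not called, and the lowest and highest member of each family named. The families were picked after their values were seen. In 10 of the 11 families called members lie on both sides of 0, from Socs3 at 8.19 to Arrdc3 at -3.62, and in the TRAF family all called members are higher.

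The markers of other cell types were read in the same libraries. The 10 macrophage markers summed to 14184 and 14062 in untreated and to 17744 and 17432 in LPS-treated cells, with 5 of 10 higher and 3 lower. Neutrophil markers summed to 375 and 386 and then to 781 and 801, with 8 of 10 tested higher. Ngp, S100a9 and Ltf rose by 1.16, 1.11 and 1.03, while Elane and Mpo were not called. Mast cell and basophil markers summed to 35.6 and 35.3 and then to 64.7 and 65.6, with 6 of 7 tested higher, led by Hdc, the histamine-forming enzyme (2.25). Sums were 41.9 and 38.5 against 51.9 and 51.8 for dendritic cells, 11.9 and 10.6 against 10.3 and 11.8 for B and T cells, 185 and 181 against 231 and 246 for erythroid cells and megakaryocytes, and 20.3 and 20.2 against 21.0 and 21.3 for stromal cells. Mcpt4 was at 0 in all 4 libraries. The part of other cells in the changes above was not tested.

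Strongly changed genes were also more compact. The median gene span was 16 kb for genes higher by 4-fold or more and 16.5 kb for genes lower by 2-fold or more, against 23.4 kb for genes not called, from RefSeq gene models found for at least 91.0% of each set. The largest exon number of a GENCODE transcript had a median of 6, 5 and 9 in these sets. Among the genes lower by 2-fold or more that were not numbered zinc finger genes, the median span was 16.4 kb. The sets also differed in level: the untreated median was 13.5 and 10.5 for the changed sets, below that of genes not called. No test of span or exon number was made.

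The wild-type response was set against that of the knock-in through the interaction in the same fit, the change with LPS among knock-in libraries less the wild-type change. This contrast differed from 0 for 7588 genes, 63.7% of those tested. The knock-in effect was above that of wild type in 31.8% of tested genes and below it in 31.8%. Of the 771 genes higher by 2-fold or more in wild type, the knock-in effect was lower in 730 and higher in 20, with median log2 changes of 1.69 (wild type) and 0.18 (knock-in). Of the 468 genes lower by 2-fold or more, the knock-in effect was above that of wild type in 460 and below it in 1, with medians of -1.28 and 0.06. Both sets were picked by their change in the same wild-type libraries that enter the contrast. The choice thus favours these directions, and the counts are no separate support for a difference. For Fbxo32 the knock-in libraries read 36.1 and 35.6 untreated and 39.2 and 41.2 with LPS, and for Cnr2 30.4 and 27.3 and 31.2 and 32.6. Since the knock-in LPS libraries came from cells of the other sex than the 6 others, genotype, sex and the animals used cannot be told apart in this comparison.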

How the data were processed

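RNA-seq values of 8 libraries (4 groups of 2) were analysed, and groups came from the sample labels. The authors deposited 1 table of 23366 genes holding a signal, each gene's read count over a scaled library size, which has the form of TMM-scaled CPM. Each column steps in whole multiples of 1 read, and 100% of values came out whole within a tolerance of 0.001. The submitters' processing notes name mm9 as the build, and edgeR, bedtools and TopHat2 2.0.9 as tools. How reads were counted, on which strand and on which annotation is not stated in the labels or notes used here, and overlapping genes and near-identical copies are uncertain for that reason.

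A gene entered the test if it reached 1 in any 2 libraries, which left 11919. On the log2(value + 1) scale a linear model was fitted with limma 3.58.1 (R 4.3.3, 2-sided, variance trend), with 4 group means over all 8 libraries (4 residual degrees of freedom, 19.1 prior), and calls were made at a Benjamini-Hochberg adjusted p under 0.05. Floors are 3 reads per library and cover counting error only. On simulated counts of 11720 genes for this comparison, 50 genes were changed at each size. Of these, 96% of those changed 1.5-fold and 100% of those changed 2-, 4- or 8-fold were recovered. Among the calls 7.04% were false. The simulation used a single dispersion and changed few genes, none of them at low level. Its shares thus do not carry over to low genes or to a response as broad as this one.

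The gene lists were hand-made, or took every symbol of a family, and the lists and genes were chosen with earlier results of these data known. Genes named were Kdm1a, Prkca and Rela, the 25 largest log2 increases and the 25 largest decreases among called genes whose groups do not overlap and whose higher mean is at least 5 (predicted genes left out), the 10 largest gains and losses in level, genes going from or to 0 reads, up to 8 called and 3 other members of each list, and 12 genes followed in the interaction. Not every gene that this rule allows is printed, some items are not reported here, and family members, receptor genes and some small changes were added after their values were seen. Promoters are from RefSeq on GRCm38.p6, matched by symbol, another build than mm9, so no coordinates were joined to the values. The alternatives were other pseudocounts, filters, scalings, variance settings, replicate blocks, edgeR 4.0.16 and DESeq2 1.42.0 on the recovered whole reads, and fits without single libraries or without the knock-in LPS libraries. Tables were made with Python 3.11.15.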

Additional observations from a re-analysis of the deposited data

Results flagged for a closer look

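The LPS effect differed between knock-in and wild type for 7588 genes by the interaction term of the limma fit (Benjamini-Hochberg adjusted p under 0.05), and the 12 genes chosen to follow this contrast are given with the knock-in effect minus the wild-type effect on the log2 scale. Among genes that rose in wild type, the difference was -9.92 ± 0.16 (SE, adjusted p = 2.18e-24) for Il1b, -9.02 ± 0.12 (SE, adjusted p = 3.27e-25) for Cxcl2, -6.30 ± 0.07 (SE, adjusted p = 5.72e-27) for Tnf, -5.93 ± 0.12 (SE, adjusted p = 4.22e-22) for Egr1, -4.52 ± 0.08 (SE, adjusted p = 1.74e-23) for Nfkbia and -4.31 ± 0.10 (SE, adjusted p = 2.16e-21) for Mki67. Ifit3, an interferon-induced gene, went the other way at 1.95 ± 0.09 (SE, adjusted p = 1.07e-15). Among genes that fell in wild type, it was 3.84 ± 0.15 (SE, adjusted p = 8.57e-17) for Fbxo32, 2.71 ± 0.12 (SE, adjusted p = 1.13e-15) for Cnr2, 2.48 ± 0.10 (SE, adjusted p = 1.80e-16) for Cebpa and 1.44 ± 0.06 (SE, adjusted p = 1.12e-15) for Txnip. Klf2, a transcription factor that was not called in wild type, differed by -1.24 ± 0.14 (SE, adjusted p = 3.33e-08). In the knock-in LPS libraries Xist was at 0.366 and 0.212 against 315 to 437 in the other 6, so genotype, sex and the animals used cannot be told apart.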

How the results depend on the processing

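Total scaling gave 1612 genes higher and 7692 lower, and 885 lower by 2-fold or more. A pseudocount of 4 gave 178 genes lower by 2-fold or more, edgeR 797 and DESeq2 744, since the size of a fold on a low gene depends on the pseudocount. Leaving out 1 library gave 2671 to 3018 genes higher, 3223 to 3341 lower, 657 to 770 higher and 448 to 502 lower by 2-fold or more, and 6915 to 7363 genes for the interaction. All other alternatives left these counts within 1.5 times. Fos, not called, was lower after quantile normalization (-0.18) and with total scaling (-0.20). Of 250 named genes, 231 had the same call in all of up to 19 alternatives and 17 lost it in at least 1. These 17 had changes smaller than 1.5-fold, apart from Cd300lf and Il33. The deviations of the libraries numbered 1 and 2 had a correlation of -0.10 between the untreated and the LPS group over 9633 genes. This does not show a pairing by number and cannot exclude one, since each group gives a single difference per gene. With the replicate block 3196 genes were higher, 3661 lower, 771 and 468 by 2-fold or more, and 7582 were called in the interaction. The crossed pairing, added after seeing the data, gave 3152 higher, 3603 lower, 771 and 469. Depth limits the genes near 1 CPM, where 1 read was worth 0.0186 to 0.0251.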

Other observations

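Of 50 tested genes of phosphoinositide and small-GTPase signalling, 20 were higher (40%, against 26.8% of all tested genes) and 13 were lower (26%, against 30.7%). The balance turned after quantile normalization (13 and 19) and with total scaling (9 and 26). Pik3r5, a regulatory subunit of the PI3 kinase that acts below G protein-coupled receptors, read 186 and 184 untreated and 616 and 670.1 with LPS (log2 change 1.79 ± 0.05 SE, limma adjusted p = 6.83e-20), and Rasgrp1, a Ras activator, rose by 2.85 ± 0.14. Gab3, an adaptor of the CSF1 receptor, fell from 11.6 and 12.8 to 5.93 and 4.75 (log2 change -1.06 ± 0.11), and Dgkz, a diacylglycerol kinase, fell by 0.83. Of 193 tested solute carriers 55 were higher (28.5%) and 64 were lower (33.2%), close to the 26.8% and 30.7% of all tested genes, against 36 and 122 with total scaling. Slc4a7, a bicarbonate transporter, rose by 1.84 ± 0.08, the zinc transporter gene Slc30a4 rose by 1.81 and the choline transporter gene Slc44a1 by 1.66. In lysosome and autophagy 10 of 43 were higher (23.3%) and 13 were lower (30.2%), also near the shares of all tested genes. With total scaling these were 2 and 35, and 6 were higher without LPS library 1. Atg14, a subunit of an autophagy PI3 kinase complex, read 24.8 and 23.4 untreated and 13.1 and 11.9 with LPS (log2 change -0.90 ± 0.08). Fnip2, a folliculin partner in nutrient signalling, read 472 and 462 untreated and 183 and 179 with LPS (log2 change -1.36 ± 0.04 SE, limma adjusted p = 1.18e-18) and had one of the 10 largest losses in level. Apobec1, the mRNA-editing cytidine deaminase, was another of these, at 629 and 647 untreated and 345 and 328 with LPS (log2 change -0.92 ± 0.05).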
